A study of Mus musculus with 6 samples.

Results

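The glycolysis and hypoxia response genes described here are 36 genes fixed by name: 22 that carry glucose through glycolysis and move or steer its end products, and 14 of the oxygen-sensing system and its other targets. All 36 were found by symbol among the 17382 genes of the deposited table, and all 36 passed the filter on low values, at least 0.1 TPM (a transcript level corrected for gene length and library total) in at least 3 libraries, as did 13722 genes in all. The rule that names them uses no measured value, though the list was drawn up with earlier results of these data known.

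The study measured RNA of myeloid cells grown from marrow of C57BL/6 mice aged 2 months, in 3 libraries labelled CKO and 3 labelled WT. Mice of the CKO group had the genotype PD-L1 flox/flox +lysozyme-Cre, and those of the WT group were littermates with PD-L1 flox/flox alone, so every animal carried the floxed alleles and the groups differ in Cre as well as in its intended deletion. Marrow was passed through a strainer of 40 µm and kept for 3 days in α-MEM with 10% FBS and 40 ng/mL of mouse M-CSF, which makes marrow cells grow into macrophages. The design text calls the libraries biological triplicates, and the p-values below measure only the spread between these samples. Lysozyme-Cre is active in granulocytes, monocytes and macrophages, so other marrow cells that remain in such a culture keep their PD-L1 gene.

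In glycolysis a cell imports glucose, splits it into pyruvate in a fixed series of enzyme steps and, when it exports the product, turns pyruvate into lactate. Many genes of these steps are switched on by the hypoxia-inducible factor HIF, whose alpha subunit is marked for destruction by oxygen-dependent prolyl hydroxylases and therefore accumulates when oxygen is scarce. Macrophages are known to raise this programme also with oxygen present, when they are activated.

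PD-L1 is encoded by Cd274, and its level checks the labels. It was 19.3, 19.2 and 29.2 TPM in CKO 1, 2 and 3 and 17.9, 15.5 and 23.7 TPM in WT 1, 2 and 3, a log2 difference of 0.24 ± 0.22 (SE, n = 3 each; limma, adjusted p = 1.0). The gene was thus not lower in the libraries labelled CKO. Which exons lie between the loxP sites is not stated in the labels, so a value over the whole gene cannot tell whether they were removed, and each direction below follows the labels. Lyz2, the lysozyme gene and a macrophage marker, lay lower in each library labelled CKO than in any labelled WT, at 19101, 19354 and 13232 TPM against 26707, 27493 and 40358 TPM, a log2 difference of -0.87 ± 0.27 (limma, adjusted p = 1.0).

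The libraries held 52355668 to 77318128 reads each, recovered from the table as whole numbers. They did not divide by genotype along the first principal component, computed without the 36 genes, which held 44.3% of the variance. CKO 1, CKO 2 and WT 3 lay on its negative side (scores of -23.0, -17.4 and -30.1) and CKO 3, WT 1 and WT 2 on its positive side (31.6, 19.8 and 19.1). These sides were read from the values and are no groups of the study. The class medians of the genotype difference are given below with and without CKO 3, and without both CKO 3 and WT 3. Results that use the sides are given with all 6 libraries only.

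The promoters of several members show the short element that HIF binds. The table of RefSeq promoters (build GRCm38.p6, the mm10 assembly) held windows for 34 of the 36 genes; Ero1l is listed there under its newer symbol Ero1a, and Bnip3l and Ndrg1 had no entry. The letters ACGTG and GCGTG were searched on both strands in the 250 bases before each start, with overlapping matches counted as 1. At least 1 match was found for 32 of the 34 genes (94.1%), with Gpi1 and Tpi1 the exceptions, against 60.1% of the 9987 tested genes with a promoter matched by symbol and 41.5% of all 27025 genes of that table. Some genes have several windows, and a match in any of them counted. By window the shares were 80.0% of 50 for the members, 54.3% of 12666 for those tested genes and 38.6% of all 32851. A match is a description of the letters and not a site shown to be bound. The 6 sequences below, 5′ to 3′ on the gene's strand with the matches in capitals, were chosen after the values had been seen: 5 belong to transporter, enzyme and target genes whose highest library was CKO 3, and the last to Pfkfb4, which was low there.
Slc2a1, chr4:119108495-119108744, plus strand: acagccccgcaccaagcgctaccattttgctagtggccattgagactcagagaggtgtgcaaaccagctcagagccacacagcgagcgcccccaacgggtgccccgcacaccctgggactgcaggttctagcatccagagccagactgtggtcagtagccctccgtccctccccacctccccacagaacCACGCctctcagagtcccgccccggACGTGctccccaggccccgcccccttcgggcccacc
Slc16a3, chr11:120948817-120949066, plus strand: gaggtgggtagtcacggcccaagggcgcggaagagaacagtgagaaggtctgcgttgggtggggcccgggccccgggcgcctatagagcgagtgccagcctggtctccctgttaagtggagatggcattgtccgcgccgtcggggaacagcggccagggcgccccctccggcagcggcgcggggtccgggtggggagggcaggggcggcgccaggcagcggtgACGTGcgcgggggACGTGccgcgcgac
Ldha, chr7:46845554-46845803, plus strand: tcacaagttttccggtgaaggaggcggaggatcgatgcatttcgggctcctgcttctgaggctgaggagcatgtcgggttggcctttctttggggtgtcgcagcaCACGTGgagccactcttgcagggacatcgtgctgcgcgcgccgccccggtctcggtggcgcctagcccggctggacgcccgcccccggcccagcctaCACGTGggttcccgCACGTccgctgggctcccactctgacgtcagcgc
Bnip3, chr7:138909507-138909756, minus strand: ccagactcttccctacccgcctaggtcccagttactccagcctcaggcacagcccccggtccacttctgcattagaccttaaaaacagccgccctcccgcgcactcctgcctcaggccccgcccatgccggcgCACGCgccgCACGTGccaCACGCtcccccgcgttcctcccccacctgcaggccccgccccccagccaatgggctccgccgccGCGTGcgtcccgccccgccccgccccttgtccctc
Ero1l, chr14:45318573-45318822, minus strand: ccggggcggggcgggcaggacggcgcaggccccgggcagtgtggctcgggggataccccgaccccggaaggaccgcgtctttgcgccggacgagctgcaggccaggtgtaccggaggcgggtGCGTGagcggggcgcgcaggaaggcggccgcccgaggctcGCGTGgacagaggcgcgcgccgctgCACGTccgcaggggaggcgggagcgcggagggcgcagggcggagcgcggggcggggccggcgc
Pfkfb4, chr9:108991652-108991901, plus strand: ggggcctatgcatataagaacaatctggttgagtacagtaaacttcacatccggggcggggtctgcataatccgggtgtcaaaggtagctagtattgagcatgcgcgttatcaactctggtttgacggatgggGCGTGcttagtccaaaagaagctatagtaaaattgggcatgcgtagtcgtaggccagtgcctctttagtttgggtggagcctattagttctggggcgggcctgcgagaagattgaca
The window of Bnip3 held 4 matches, those of Ldha and Ero1l 3 each, those of Slc2a1 and Slc16a3 2 each, and that of Pfkfb4 1. Ldha has a second RefSeq start, whose window held 1 match. The number of matches did not follow the library pattern throughout, and their relation was not tested. Tpi1, also highest in CKO 3, had 0 matches, and Hk3 and Pfkl, highest there too, had 1 each. Pfkm, lower in CKO 3 than in CKO 1 and CKO 2, had a window with 2.

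No member passed the test of genotype. By limma on log2(TPM + 0.1), 0 of the 36 had an adjusted p under 0.05, as did 0 of all 13722 genes (0.0%), and the adjusted p was 1.0 for each member. At an unadjusted p under 0.05 there were 0 members and 299 genes in all (2.18%). With limma-voom, run on reads recovered from the table, 0 genes had an adjusted p under 0.05, and 310 genes with 1 member among them an unadjusted one. The authors' deposited table calls 46 of 17382 genes (0.265%), of which 0 are members, and its smallest member p is that of Vegfa, 0.0249 before adjustment. Levels in the libraries labelled CKO lay above all those labelled WT for 2 members, Aldoc and Bnip3, against 2.84% of all genes. The reverse held for 0 members, against 2.27% of all genes.

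The 22 glycolysis members had a median log2 difference, CKO minus WT, of 0.028, with 14 positive and 8 negative values from -0.19 to 0.37. The 14 genes of the HIF system and its other targets had a median of 0.162, with 12 positive and 2 negative values from -0.14 to 0.51. The median over all genes tested was 0.003. Both medians were smaller than the SD of the replicates' class medians, 0.296 and 0.231. Without CKO 3 the medians were -0.199, with 7 positive and 15 negative values, and -0.085, with 5 positive and 9 negative. In RNA of a whole culture, fewer cells of a type and less RNA per cell cannot be told apart.

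**Figure D1:**
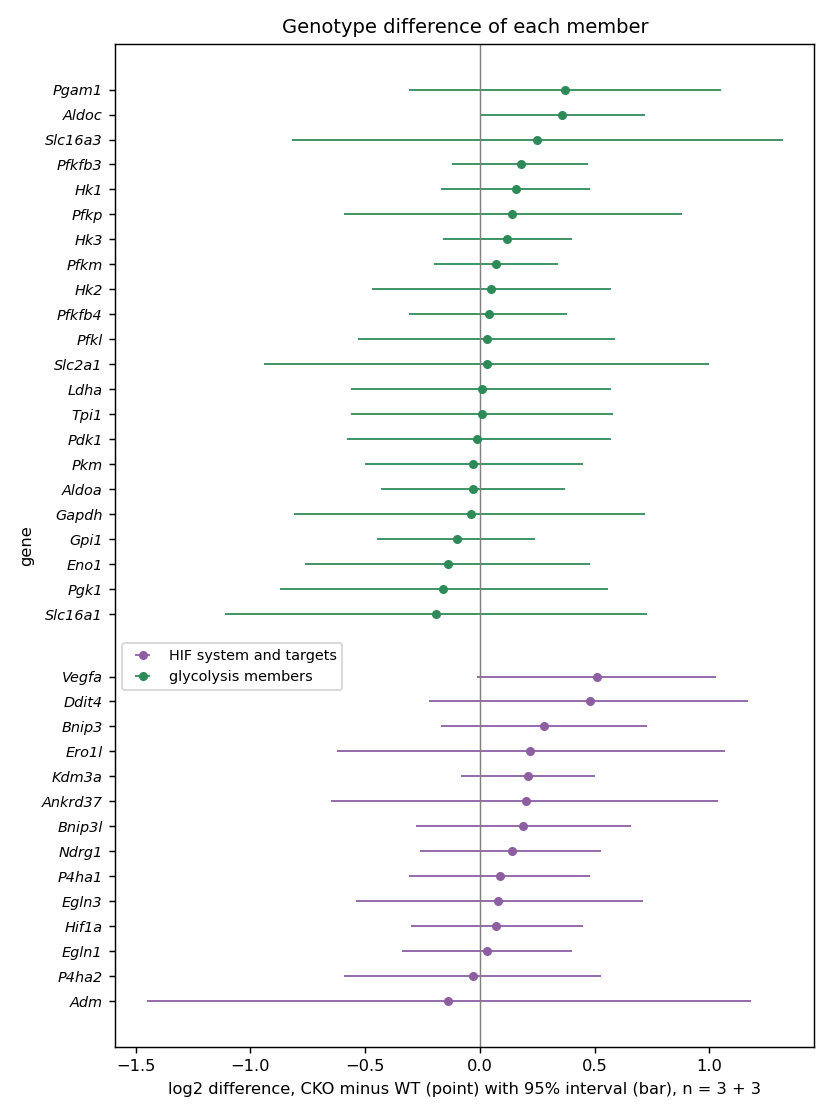
Each point is the log2 difference of a member, CKO minus WT on the log2(TPM + 0.1) scale (x axis), with its 95% interval as a bar (limma, n = 3 and 3), and genes are listed on the y axis, glycolysis members above and the HIF system and targets below. Points lie between -0.19 and 0.51, and the intervals reach 0 or pass it, those of Aldoc and Vegfa by the smallest margin.

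The 3 transporters spread widely within both groups. Among libraries labelled CKO their median was 2.43-fold from lowest to highest, against 1.49-fold for the 16 enzymes and 1.25-fold for all genes tested. Among those labelled WT it was 1.92-fold, against 1.45-fold for the enzymes and 1.29-fold for all genes tested. Slc2a1, the glucose importer GLUT1 (chromosome 4, 119108745 to 119137329, plus strand, mm10), had 32.3, 32.6 and 78.7 TPM in CKO 1, 2 and 3 and 55.5, 48.4 and 29.0 TPM in WT 1, 2 and 3. CKO 3 was highest and WT 3 lowest, 2.71-fold apart, and the groups overlapped. The means were 47.9 ± 26.7 against 44.3 ± 13.7 TPM (SD, n = 3 each).

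Slc16a3, the lactate exporter MCT4 (chromosome 11, 120948484 to 120959000, plus strand), had 21.0, 18.2 and 58.7 TPM in the libraries labelled CKO and 29.8, 23.7 and 18.9 TPM in those labelled WT. CKO 3 held 2.63 times the mean of the other 5 libraries, while CKO 1 and 2 lay within the range of WT 3 to WT 1 or just below it. Its log2 difference was 0.25 ± 0.45 with CKO 3 and -0.28 ± 0.20 without it. Slc16a1, the transporter MCT1 that carries lactate and pyruvate in either direction, had its highest level in WT 2 (25.0 TPM) and its lowest in WT 3 (10.8 TPM), with CKO 1, 2 and 3 at 12.1, 13.6 and 24.2 TPM.

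**Figure D2:**
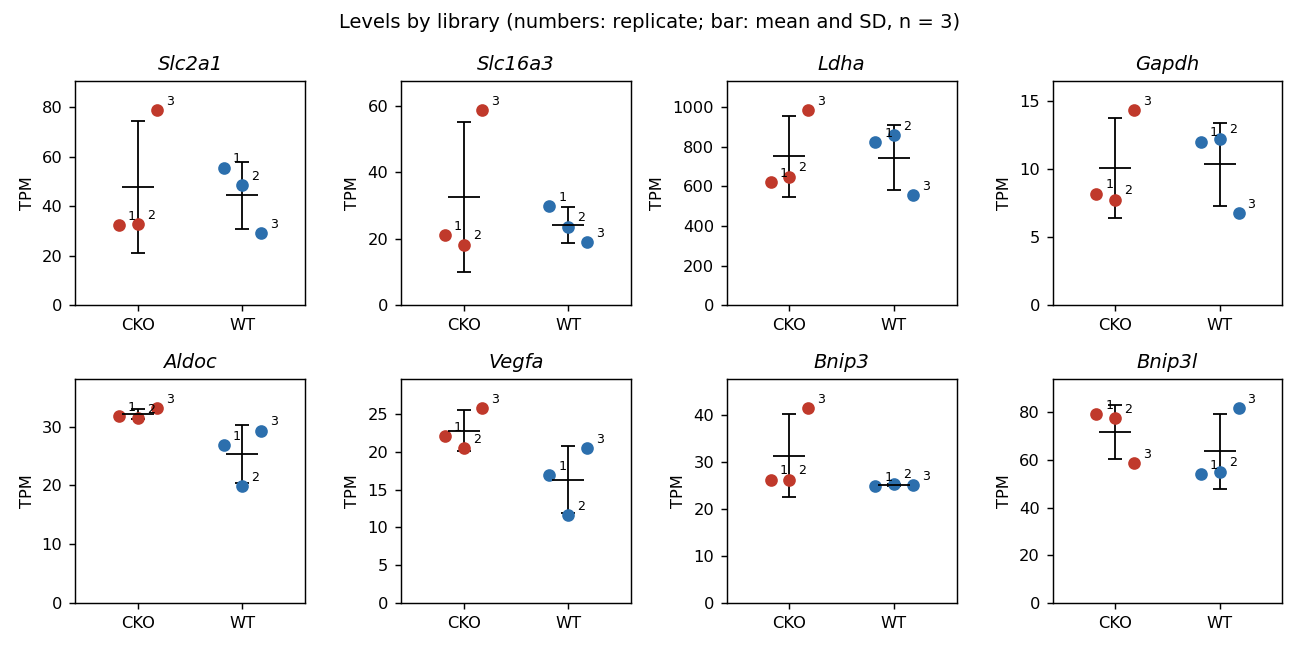
Level in TPM (y axis, from 0) of 8 members in each library, by group on the x axis; points are libraries with their replicate number, and bars are the mean and SD of 3. For Slc2a1, Slc16a3, Ldha and Gapdh the third CKO library lies above the other 5, Bnip3l is highest in the third WT library and in the first and second CKO libraries, and the groups of Aldoc and Bnip3 do not overlap.

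Among the enzymes of the upper part of the path, the hexokinases trap glucose in the cell by phosphorylation. Hk3 was the most abundant of the 3, at 363, 351 and 452 TPM in CKO 1, 2 and 3 and 346, 382 and 341 TPM in WT 1, 2 and 3. Hk1 ranged from 73.6 TPM (WT 3) to 108 TPM (CKO 3) and Hk2 from 29.3 to 49.6 TPM in the same libraries. CKO 3 was thus highest for each hexokinase, and the groups overlapped for each. Log2 differences were 0.12 ± 0.12 for Hk3 and 0.16 ± 0.13 for Hk1, and 0.00 ± 0.09 and 0.02 ± 0.10 without CKO 3.

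Gpi1, the isomerase that follows, had 388, 400 and 487 TPM against 522, 467 and 385 TPM, a log2 difference of -0.10 ± 0.14. That value was -0.21 without CKO 3, -0.22 without WT 3 and near 0 without WT 1. Phosphofructokinase, the committed step, has 3 subunit genes. Pfkp ranged from 68.5 TPM in WT 3 to 155 TPM in CKO 3, with 75.5, 75.0, 93.5 and 101 TPM in CKO 1, CKO 2, WT 1 and WT 2. Pfkl showed the same order of sides, from 40.0 TPM (WT 3) to 70.7 TPM (CKO 3). Pfkm, the muscle form, ran against them in a narrow range: 15.3 and 14.8 TPM in CKO 1 and 2 and 15 TPM in WT 3, but 13.0, 12.8 and 13.2 TPM in CKO 3, WT 1 and WT 2. Its log2 difference was 0.07 ± 0.11, from 0.02 to 0.14 with single libraries left out.

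Aldolase splits the sugar bisphosphate, and its 2 measured forms differed in pattern. Aldoa, the main form, had 1380, 1404 and 1880 TPM against 1781, 1604 and 1361 TPM. Aldoc had 31.8, 31.5 and 33.2 TPM in the libraries labelled CKO and 26.9, 19.9 and 29.3 TPM in those labelled WT. The 3 CKO values of Aldoc lay within 2 TPM of each other and above all WT values, with WT 2 the lowest. The log2 difference was 0.36 ± 0.15 (limma, unadjusted p = 0.050, adjusted p = 1.0), between 0.20 and 0.47 when single libraries were left out, and it was 0.11 within the negative and 0.52 within the positive side.

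The lower part of the path yields ATP and pyruvate. Tpi1, which interconverts the triose phosphates, had 457, 473 and 753 TPM in CKO 1, 2 and 3 and 611, 620 and 422 TPM in WT 1, 2 and 3. Gapdh, the oxidising step, had 8.17, 7.73 and 14.3 TPM against 12, 12.2 and 6.77 TPM. Both genes were high in CKO 3, WT 1 and WT 2 and low in the other 3 libraries, so the groups overlapped.

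Pgk1, the first step that yields ATP, had its highest level in WT 1 (42.5 TPM) and its lowest in WT 3 (19.6 TPM). Pgam1, the mutase, was the least regular: 60.6, 65.5 and 86.6 TPM against 36.7, 79.0 and 55.4 TPM. Its log2 difference was 0.37 ± 0.28, and from 0.08 to 0.64 when single libraries were left out. Eno1, enolase, ranged from 148 TPM in WT 3 to 269 TPM in WT 1.

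Pkm, pyruvate kinase, was the most abundant member, with 1620, 1691 and 2310 TPM against 2120, 2102 and 1497 TPM. Ldha, which turns pyruvate into lactate (chromosome 7, 46845804 to 46855627, plus strand), had 619, 648 and 983 TPM against 821, 857 and 555 TPM. In both, CKO 3 was highest, WT 1 and WT 2 followed, and CKO 1, CKO 2 and WT 3 were lowest. The genotype means of Ldha were 750 ± 202 and 744 ± 165 TPM (SD, n = 3 each), and the 95% interval of its log2 difference ran from -0.56 to 0.57.

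Of the 3 regulators, Pfkfb3 makes the sugar phosphate that activates phosphofructokinase. It had 24.3, 22.7 and 28.4 TPM against 21.5, 20.3 and 24.7 TPM, a log2 difference of 0.18 ± 0.12 with overlapping groups, and of 0.09 without CKO 3. Its relative Pfkfb4 was lower in CKO 3, WT 1 and WT 2 (39.2, 43.5 and 37.2 TPM) than in CKO 1, CKO 2 and WT 3 (48.3, 47.5 and 51.6 TPM). Pdk1, the kinase that keeps pyruvate out of the mitochondrial cycle, followed the enzymes, with 33.1, 34.6 and 50.2 TPM against 43.4, 47.1 and 28.5 TPM.

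In the HIF system itself, Hif1a, the oxygen-regulated subunit (chromosome 12, 73907867 to 73947530, plus strand), had 88.9, 90.8 and 123 TPM in the libraries labelled CKO and 102, 102 and 82.1 TPM in those labelled WT. CKO 3 was highest and WT 3 lowest, and the log2 difference of 0.07 ± 0.16 became -0.08 ± 0.12 without CKO 3. HIF is controlled mainly through the stability of its protein, which RNA does not measure. Egln1, the chief prolyl hydroxylase, ranged from 29.9 TPM (WT 3) to 43.0 TPM (CKO 3). Egln3, a hydroxylase that is itself a HIF target, had 2.45, 2.28 and 4.13 TPM against 3.19, 2.23 and 2.70 TPM, again highest in CKO 3.

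Among the other targets, Vegfa, the vascular growth factor (chromosome 17, 46016993 to 46032377, minus strand), had 22.1, 20.5 and 25.8 TPM in CKO 1, 2 and 3 and 16.9, 11.6 and 20.5 TPM in WT 1, 2 and 3. WT 2 was lowest, and CKO 2 and WT 3 met at the edge of the groups. The log2 difference of 0.51 ± 0.22 was the largest of the 36 and did not pass (limma, unadjusted p = 0.054, adjusted p = 1.0). Its 95% interval ran from -0.01 to 1.03. Within the negative side it was 0.05, within the positive side 0.88, and without single libraries it ranged from 0.28 to 0.69.

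Bnip3 and Bnip3l encode related receptors that mark mitochondria for removal, and their order of libraries differed. Bnip3 (chromosome 7, 138890836 to 138909506, minus strand) had 26.2, 26.2 and 41.5 TPM against 24.9, 25.4 and 25.1 TPM. The groups did not overlap, but CKO 1 and 2 lay less than 1 TPM above WT 2, and the log2 difference of 0.28 ± 0.19 was 0.06 ± 0.09 without CKO 3. Bnip3l had 79.2, 77.7 and 58.8 TPM against 54.1, 55.2 and 81.9 TPM, so that CKO 1, CKO 2 and WT 3 were the high libraries. Its log2 difference was 0.19 ± 0.20, and ranged from 0.08 without WT 1 to 0.38 without WT 3 when single libraries were left out.

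Ero1l, which oxidises cysteines during protein folding (chromosome 14, 45283087 to 45318572, minus strand), had 33.9, 33.4 and 79.7 TPM against 41.9, 43.8 and 30.9 TPM. CKO 3 held 2.17 times the mean of the other 5 libraries. Ddit4, an inhibitor of the growth kinase complex mTORC1, had 4.13, 4.50 and 8.43 TPM against 4.4, 3.22 and 4.02 TPM, a log2 difference of 0.48 ± 0.29 that was 0.16 ± 0.18 without CKO 3. The ankyrin repeat gene Ankrd37 had 2.5, 2.54 and 5.79 TPM against 3.19, 3.38 and 2.24 TPM. In each of these 3 genes CKO 3 was the library that stood apart, at 2.08 to 2.17 times the mean of the rest.

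P4ha1 and P4ha2, the catalytic subunits of collagen prolyl hydroxylase, ranged from 47.4 to 71.6 TPM and from 13.5 to 22.8 TPM, each lowest in CKO 1 and highest in CKO 3. Ndrg1, a stress-induced gene of differentiating cells, had 55.8, 53.5 and 76.3 TPM against 63.8, 48.9 and 55.1 TPM, a log2 difference of 0.14 ± 0.17 that was -0.02 without CKO 3. Kdm3a, a histone demethylase, had 45.6, 42.2 and 42.3 TPM against 33.9, 35.1 and 44.5 TPM, a log2 difference of 0.21 ± 0.12 (0.13 to 0.33 with single libraries left out), with WT 1 and WT 2 the low libraries. Adm, the vasodilator peptide adrenomedullin, was close to the filter, with 15, 12 and 18 reads against 4, 43 and 21 reads, and these few reads limit its precision.

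Most members followed a pattern by library that crossed the genotypes. CKO 3 was the highest of the 6 libraries for 27 of the 36 members (75.0%), 16 of 22 in glycolysis and 11 of 14 in the HIF group, against 19.5% of all genes tested. WT 3 was the lowest for 20 members (55.6%), 16 of them in glycolysis, against 30.2% of all genes. CKO 3, WT 1 and WT 2 all lay above CKO 1, CKO 2 and WT 3 for 21 members (58.3%), 15 in glycolysis and 6 in the HIF group, against 24.6% of all genes. The opposite order held for 3 members, Pfkm, Pfkfb4 and Bnip3l (8.33%), against 22.7% of all genes. Members of a pathway can move together, so these counts are descriptions without a test.

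**Figure D3:**
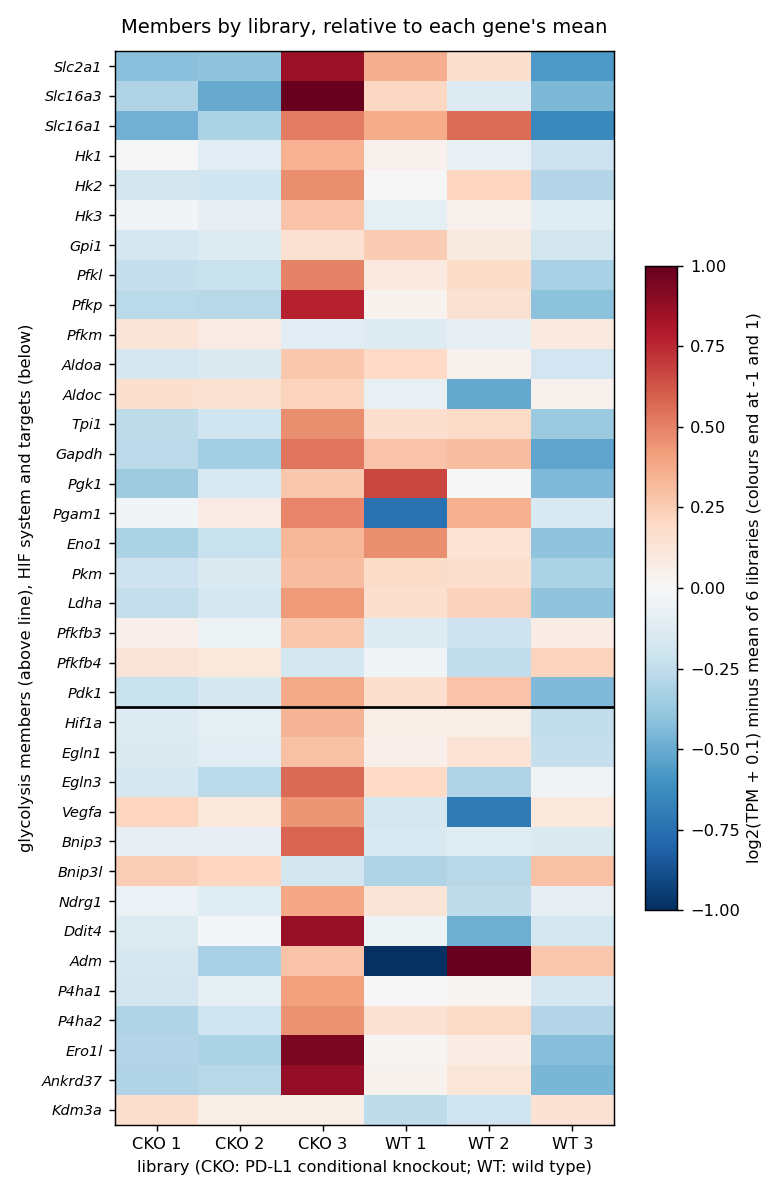
Colour shows log2(TPM + 0.1) of each member (y axis) in each library (x axis) minus the gene's mean over the 6 libraries, red above and blue below it, with the colour scale ending at -1 and 1. The column of CKO 3 is red for most genes and that of WT 3 blue for most glycolysis members, with Pfkm, Pfkfb4 and Bnip3l in the opposite colours.

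The library pattern differed between the classes in which libraries deviated, and less in its size. The highest library lay a median of 1.76-fold above the lowest in glycolysis and 1.68-fold in the HIF class. The median glycolysis member deviated from its own mean by -0.21, -0.15 and 0.36 on the log2 scale in CKO 1, 2 and 3 and by 0.17, 0.15 and -0.32 in WT 1, 2 and 3. The HIF class gave -0.14, -0.10 and 0.42 against 0.01, -0.05 and -0.15. The glycolysis genes were thus higher in CKO 3, WT 1 and WT 2, and the HIF class in CKO 3, with WT 1 and WT 2 near its mean. Over all members the highest library lay a median of 1.73-fold above the lowest, against 1.39-fold over all genes tested, while CKO 1 and CKO 2 differed by a median of 1.04-fold.

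A fit with the side of that component as a term compares genotypes within each side. In it 0 members passed at an adjusted p under 0.05 (limma), and the lowest adjusted p was 0.57. At an unadjusted p under 0.05, 16 members lay higher in the libraries labelled CKO, 10 in glycolysis and 6 in the HIF group, and 0 lower, against 4.38% of all genes that lay higher. The medians were 0.20 and 0.21 on the log2 scale, with 21 of 22 and 13 of 14 values positive. Among them Slc2a1 differed by 0.38 ± 0.11, Ldha by 0.21 ± 0.06, Hif1a by 0.20 ± 0.06 and Ero1l by 0.51 ± 0.16 (SE). The difference was positive within both sides for 26 members (72.2%), against 30.3% of all genes. The positive side holds 1 library labelled CKO, CKO 3, and the negative side 1 labelled WT, WT 3, so these values rest on those 2 libraries. On the component CKO 3 scored 31.6 against 19.8 and 19.1, and WT 3 scored -30.1 against -23.0 and -17.4. Libraries labelled CKO thus scored higher within both sides, as would any gene that rises along the component. Genotype and position along the component therefore cannot be told apart in these values.

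Without CKO 3 and WT 3, 17 of 22 glycolysis members and 9 of 14 members of the HIF group had a negative log2 difference. Genotype and side then coincide and cannot be told apart, and 1496 of 13441 genes were called (11.1%; limma, adjusted p under 0.05). The libraries left out are those that cross the genotypes on a component read from these values, so these calls do not test genotype. Of the members 13 were called, 11 lower and 2 higher in CKO 1 and 2 than in WT 1 and 2. Over all 13441 genes 758 were called lower and 738 higher. The members called lower were Slc2a1, Slc16a1, Pfkl, Pfkp, Tpi1, Gapdh, Eno1, Ldha, Pdk1, P4ha2 and Ero1l, and those called higher Bnip3l and Kdm3a. Slc2a1 differed by -0.67 ± 0.09, Ldha by -0.40 ± 0.08 and Bnip3l by 0.52 ± 0.06. The medians were -0.361 in glycolysis and -0.163 in the HIF group.

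The order of the levels over the 6 libraries, in mean TPM, ran from Pkm (1890), Aldoa (1568), Ldha (747), Tpi1 (556), Gpi1 (441), Hk3 (372) and Eno1 (200) to Hif1a (98.1), the most abundant gene of the HIF group. Ranges of neighbours in the whole order overlapped except between Aldoa and Ldha, Hk3 and Eno1, Eno1 and Hif1a, and Egln3 and Adm. The lowest were Gapdh (10.2), Ddit4 (4.79), Ankrd37 (3.27), Egln3 (2.83) and Adm (0.482). Among related forms Hk3 exceeded Hk1 (85.4) and Hk2 (36.6), Pfkp (94.7) exceeded Pfkl (51.1) and Pfkm (14), Bnip3l (67.8) exceeded Bnip3 (28.2), and P4ha1 (54.4) exceeded P4ha2 (17).

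The levels of Gapdh and Pgk1 are uncertain. In the transcripts of GENCODE M21, 58.4% of the 50-base stretches of Gapdh also stand in another gene, nearly all in its 213 pseudogenes, and 68.0% of those of Pgk1 stand in 5 pseudogenes. The share was 59.1% for Bnip3, 49.5% for Eno1, 41.5% for Pgam1 and 24.5% for Gpi1. It was above 10% for 12 members and 0 for 15. How reads of such stretches were counted is not given in the sources used here, so the place of these genes in the order of levels is uncertain.

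Genes of the neighbouring pathways, taken from lists of names, were measured in the same way, and 0 of them passed in either direction. Among 12 tested glycolysis genes that are not members, 6 values were positive and 6 negative. Slc2a6, a glucose transporter, had 37.8, 39.4 and 38.7 TPM against 36.3, 23.7 and 33.4 TPM, and Slc2a3, the importer GLUT3, 25.2, 24.5 and 25.7 TPM against 31.1, 28.8 and 26.1 TPM. The groups of both genes did not overlap, in opposite directions, with log2 differences of 0.33 ± 0.16 and -0.18 ± 0.09. Pfkfb1 differed by -0.14 ± 0.13. CKO 3 was the highest library for 2 of these 12 genes.

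Of 12 tested components of the HIF pathway 8 were positive and 4 negative. Epas1, which encodes HIF-2 alpha, had 6.84, 5.66 and 5.72 TPM against 8.19, 11.5 and 6.83 TPM, a log2 difference of -0.50 ± 0.21 with CKO 1 and WT 3 meeting at the edge of the groups. Vhl, which recruits hydroxylated HIF for destruction, and Cited2, which competes with HIF for its coactivators, differed by 0.08 ± 0.11 and 0.15 ± 0.16.

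In a further list of 26 hypoxia targets, 15 values were positive and 11 negative, and CKO 3 was highest for 14 genes (53.8%). Edn1 and Nos2, among those with the smallest p, had low levels. Edn1, the vasoconstrictor endothelin, had 0.231, 0.296 and 0.264 TPM against 0.484, 0.946 and 0.626 TPM, a log2 difference of -1.07 ± 0.26. Nos2, the inducible nitric oxide synthase of activated macrophages, had 0.135, 0.101 and 0.733 TPM against 0.0473, 0.0161 and 0.0350 TPM. Nos2 passed the filter only through the libraries labelled CKO, so its difference of 1.36 ± 0.55 and the gap between the groups were partly set by the filter and are given as levels.

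Genes that take pyruvate further showed smaller differences between libraries. Of 12 tested genes of pyruvate entry into mitochondria 9 were positive and 3 negative, and those with the smallest p were the phosphatase gene Pdp1 (0.16 ± 0.11), the carrier gene Mpc2 (0.12 ± 0.10) and Pdk3 (-0.14 ± 0.13). Of 17 genes of the tricarboxylic acid cycle 6 were positive and 11 negative, between -0.16 and 0.05, and CKO 3 was the highest library for 0 of them. Idh2, Ogdh and Idh3g, which encode dehydrogenases or a dehydrogenase subunit of the cycle, differed by -0.13 ± 0.09, -0.12 ± 0.10 and -0.12 ± 0.10. In the pentose phosphate pathway, the branch of glucose use that yields NADPH, 5 of 7 values were positive, with Rpe at 0.09 ± 0.11, Pgd at 0.05 ± 0.09 and Taldo1 at -0.03 ± 0.11.

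**Figure D4:**
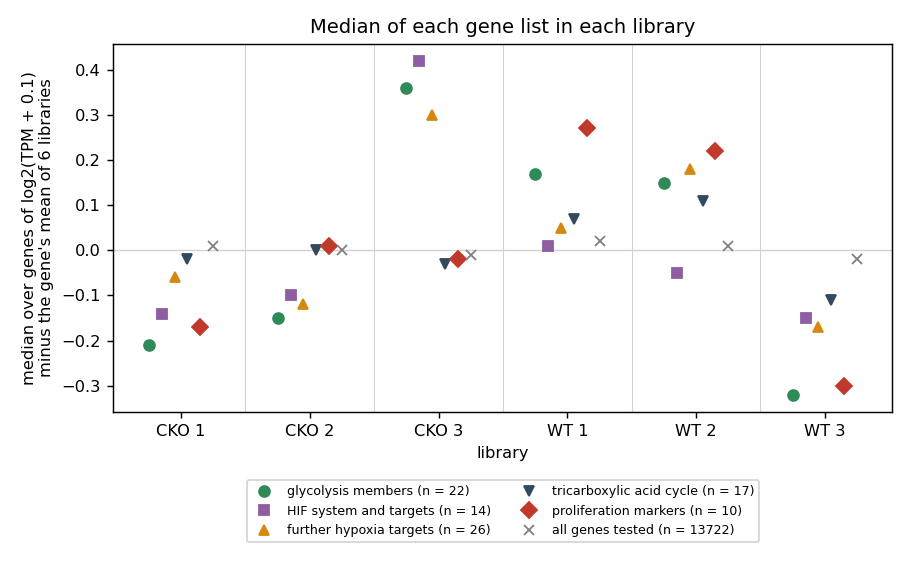
For each library (x axis), the median over a gene list of log2(TPM + 0.1) minus the gene's mean over the 6 libraries (y axis); symbols are gene lists. In CKO 3 the glycolysis members, the HIF system and targets and the further hypoxia targets stand at 0.36, 0.42 and 0.30, while the tricarboxylic acid cycle and the proliferation markers stand at -0.03 and -0.02.

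Markers of cell types and of division also varied between the libraries, and their part in these results was not tested. Proliferation markers summed to 1555, 1705 and 1860 TPM in CKO 1, 2 and 3 and 2165, 2102 and 1405 TPM in WT 1, 2 and 3, so WT 1 and WT 2 were high and WT 3 low, as for the glycolysis members, while CKO 3 lay between them. Of 10 listed macrophage markers 9 were found by symbol. These summed to 17352 to 24334 TPM in the libraries labelled CKO and 31671 to 45533 TPM in those labelled WT, mostly from Lyz2. Without Lyz2 they summed to 4120 to 5095 TPM against 4338 to 5175 TPM. All 9 were above 0 in every library of these cells labelled myeloid. The neutrophil and granulocyte progenitor markers, 9 of 10 listed being found, summed to 6282 to 7243 against 5196 to 7548 TPM, with S100a9 at the top.

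Other cell types gave smaller sums. T and NK cell markers summed to 3.14 to 5.35 TPM in the libraries labelled CKO and 0.93 to 1.19 TPM in those labelled WT, without overlap, with Cd3e, Gzmb and Ncr1 at 0 in at least 1 library. B cell markers summed to 58.0 to 98.6 against 92.4 to 119 TPM, erythroid markers to 39.0 to 74.8 against 61.5 to 110 TPM, and megakaryocyte markers, mostly Pf4, to 789 to 1146 against 968 to 1064 TPM. Dendritic cell markers gave 13.7 to 18.8 against 14.5 to 19.2 TPM and stromal markers 2.02 to 2.53 against 2.60 to 4.88 TPM. In CKO 3 the macrophage, neutrophil, B cell, megakaryocyte and dendritic cell sums were the lowest of the 3 libraries labelled CKO. The erythroid, stromal and proliferation sums were the highest of the 3 there. The T and NK cell sum of CKO 3 lay between those of CKO 1 and CKO 2.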

How the data were processed

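The authors deposited 1 table of 17382 genes with a TPM value per library. Its values are not whole numbers and every library has the same total, from which the unit was read. Further columns, per the file headers, hold a log2 fold change, a mean log2 CPM, a score (the likelihood ratio) and a p-value with its adjusted form for each gene. The mean log2 CPM entered the recovery of reads described below. The other columns served at most as a comparison. Tools named in the submitters' processing notes are TopHat2 2.0.12, Picard 1.127, FastQC 0.11.2, featureCounts, Subread and edgeR, with the build mm10. What each did, how reads were counted and with which annotation is not given in the sources used here. Whole reads were recovered from the TPM values for 100% of 94034 values above 0, within 0.01 of a read, which gave 52355668 to 77318128 reads per library.

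The genotypes were compared by limma 3.58.1 (R 4.3.3; mean-variance trend, two-sided, Benjamini-Hochberg over all genes tested, adjusted p under 0.05) on log2(TPM + 0.1), over the 13722 genes that reached 0.1 TPM in 3 or more libraries. Log2 differences refer to this scale and understate changes of genes with low values. The fit and the read recovery were also run on simulated data. The data simulated for the fit held no component that crosses the genotypes. Those for the recovery had a mean log2 CPM made by the formula that the recovery inverts. These runs therefore cannot check the fit under such a component, nor that formula. No exact permutation test was made, since 0.1 is the smallest p that 3 libraries against 3 allow.

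The members, the gene lists, the pseudocount and the filter were chosen with earlier results of these data known. Log2 differences are named for the 8 glycolysis members and the 6 of the HIF group with the smallest p, for Hif1a, for up to 3 genes of each pathway list by smallest p, and for Cd274 and Lyz2; a few others are named beside the alternative fits, after their values were seen. Marker lists are given by summed levels. A gene that this rule also names is not reported here. Alternatives were a pseudocount of 1, a filter of 1 TPM or none, median-of-ratios scaling, limma-voom on the recovered reads, the replicate number as a block, the side of the first component as a term, and leaving out each library, or both CKO 3 and WT 3.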

Additional observations from a re-analysis of the deposited data

How the results depend on the processing

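With a pseudocount of 1, either filter, median-of-ratios scaling, limma-voom on the recovered reads and each single library left out, 0 genes and 0 members were called (limma, adjusted p under 0.05). Over the 6 left-out libraries the median log2 difference ranged from -0.199 to 0.132 in glycolysis and from -0.085 to 0.229 in the HIF group, lowest without CKO 3. Differences of named members ranged from -0.28 to 0.56 for Slc16a3, from -0.02 to 0.24 for Ndrg1 and from -0.08 to 0.16 for Hif1a, negative without CKO 3 for all 3 and for Hif1a also without WT 3 (-0.03). The authors' deposited table calls 46 genes and 0 members. Without both CKO 3 and WT 3, where genotype and side coincide, 1496 genes and 13 members were called, the medians were -0.361 and -0.163, and Hk1 (-0.04), Hk3 (-0.03), Slc16a3 (-0.44), Ndrg1 (-0.03) and Hif1a (-0.18) changed sign; Bnip3l (0.52) and Kdm3a (0.35) passed. With the term for the side Gpi1 changed sign (0.01). The cause of these changes was not tested. In the following count the authors' deposited table stands among the alternatives. Of 225 values of the 15 named members under alternatives, 213 kept their direction and their side of the threshold, 10 changed direction and 2 passed in addition. These members were picked by smallest p, apart from Hif1a, and some alternatives, such as the replicate block, hardly alter the estimates. The count therefore does not describe all 36 members. Without CKO 3, positive values fell from 14 to 7 of 22 in glycolysis and from 12 to 5 of 14 in the HIF group. The filter of 1 TPM leaves out Adm.

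The fit with the replicate block called 0 genes and 0 members, with medians of 0.028 and 0.162. Deviations of same-numbered libraries correlated at -0.239, -0.146 and -0.534 across genes. The first component crossed the numbers, so these correlations cannot decide whether same-numbered samples were paired. The labels used here do not state a pairing. Depth limits Adm, with 4 to 43 reads per library, and Ankrd37, with 58 to 127; every other member had at least 157.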
